A study of Mus musculus with 6 samples.

Results

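Neuronal immediate early genes are transcribed within minutes of synaptic activity, without new protein synthesis, and return quickly to a low level. Calcium entry and kinase cascades act on the transcription factors CREB, SRF and MEF2, which are already bound at these genes, and many of the products are themselves transcription factors that drive a later set of effector genes. In brain they are widely used to mark recently active neurons, and several also respond to growth factors and handling in other cells. The genes described here were 10 of the 37310 genes in the count table, chosen by symbol: *Fos*, *Fosb* and *Junb* (subunits of the AP-1 transcription factor), *Egr1*, *Egr2* and *Egr4* (zinc finger factors), *Npas4* (a neuron-specific bHLH-PAS factor), *Nr4a1* (an orphan nuclear receptor), *Arc* (a synaptic protein involved in glutamate receptor endocytosis) and *Dusp1* (a phosphatase that inactivates MAP kinases). All 10 passed the expression filter of the comparison.

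RNA was sequenced from whole brain of 12 week old male C57BL/6 mice. There were 3 *Adar1* E861A/E861A *Ifih1*-/- libraries, called E861A, in which ADAR1 is present but cannot edit adenosine to inosine, and 3 *Adar1*+/+ *Ifih1*-/- libraries, called WT. Both groups lacked *Ifih1*, which encodes the RNA sensor MDA5, so WT refers to *Adar1* only, and no library came from a mouse with MDA5. Both alleles were carried by every cell, and whole brain mixes all regions and cell types, so fewer active cells and less RNA per cell cannot be told apart. The time of day at collection and the handling of the mice, to which these genes are known to respond, were not given in the sources used here.

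Libraries held 26853488 to 38076753 counts. Levels are given as CPM, the count of a gene scaled to the library total, and p-values and SDs measure the spread between the libraries of a genotype. Neuron markers were abundant in every library, with a summed level over 6 genes of 3789 to 3908 CPM in E861A and 3933 to 4004 CPM in WT. One library carried pituitary transcripts: the 6 pituitary markers summed to 441 CPM in E861A replicate 1 and to 1.33 to 3.56 CPM in the others. The group values of the members and of the related lists are also given without that library. An unadjusted p under 0.05, which is counted below for gene lists, was found for 1230 of the 13649 tested genes, or 9.01%.

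The activation of these genes runs in part through the cAMP response element (CRE), so the sequence before the annotated start was read from RefSeq for the build GRCm38.p6. Windows were found for 8 of the 10 genes and not for *Arc* and *Egr1*. The half-site of the CRE, TGACG on either strand, was present within 250 bases of a start in all 8 genes and in 10 of their 12 windows, of which several *Egr2* windows overlap. It was present in 17.7% of the 32817 windows of this length in the table. The 5 genes to which the results return most often are shown 5′ to 3′ on the strand of the gene, with CRE half-sites and the EGR site GCGGGGGCG in capitals. They are *Fosb*, which was the only one to pass the test, its paralogue *Fos*, *Egr4*, which was the other gene without overlap between genotypes, *Npas4*, which varied most between libraries, and *Dusp1*, which held the full element TGACGTCA.

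Fosb (chr7:19310046-19310295, minus strand): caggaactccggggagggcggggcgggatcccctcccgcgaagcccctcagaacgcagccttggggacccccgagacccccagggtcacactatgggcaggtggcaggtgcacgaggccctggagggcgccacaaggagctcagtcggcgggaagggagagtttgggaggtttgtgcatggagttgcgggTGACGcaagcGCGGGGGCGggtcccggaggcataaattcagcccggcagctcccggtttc
Fos (chr12:85473640-85473889, plus strand): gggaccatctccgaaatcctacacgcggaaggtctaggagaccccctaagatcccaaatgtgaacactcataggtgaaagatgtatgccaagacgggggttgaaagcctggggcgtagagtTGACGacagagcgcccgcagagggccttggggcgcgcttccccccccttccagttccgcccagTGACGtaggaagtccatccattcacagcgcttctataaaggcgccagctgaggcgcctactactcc
Egr4 (chr6:85513590-85513839, minus strand): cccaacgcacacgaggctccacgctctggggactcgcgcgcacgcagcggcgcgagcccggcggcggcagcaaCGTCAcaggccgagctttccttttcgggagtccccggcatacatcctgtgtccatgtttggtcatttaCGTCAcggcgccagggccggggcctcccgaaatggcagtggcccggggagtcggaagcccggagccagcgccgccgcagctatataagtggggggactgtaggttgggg
Npas4 (chr19:4989972-4990221, minus strand): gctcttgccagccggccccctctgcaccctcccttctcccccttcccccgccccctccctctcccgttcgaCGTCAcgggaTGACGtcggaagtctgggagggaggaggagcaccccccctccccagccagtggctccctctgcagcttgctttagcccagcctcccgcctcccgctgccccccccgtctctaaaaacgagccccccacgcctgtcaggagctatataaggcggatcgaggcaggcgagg
Dusp1 (chr17:26508473-26508722, minus strand): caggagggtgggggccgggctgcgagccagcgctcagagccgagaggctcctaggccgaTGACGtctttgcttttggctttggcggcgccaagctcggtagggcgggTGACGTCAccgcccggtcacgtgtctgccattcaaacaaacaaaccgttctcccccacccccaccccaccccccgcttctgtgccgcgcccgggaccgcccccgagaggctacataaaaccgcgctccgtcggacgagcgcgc

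In *Fosb* 1 half-site lay at -60 to -56 from the start, next to an EGR site at -50 to -42, and in *Fos* there were 2, at -129 to -125 and -66 to -62. *Egr4* had half-sites at -177 to -173 and -109 to -105 on the opposite strand. In *Npas4* they lay at -179 to -175 and -169 to -165 on opposite strands. The full element of *Dusp1*, at -143 to -136, is made of 2 overlapping half-sites and was present in 1.55% of all windows. *Nr4a1* held 4 half-sites and, like *Fosb*, an EGR site, which 2.57% of all windows held. A CArG box, the site bound by SRF, was found in *Egr2* alone among the 8, against 1.47% of all windows. No window of the 8 genes held the AP-1 site TGANTCA, which was in 6.75% of all windows, or a MEF2 site, which was in 2.92%. These are matches of letters only, and no binding was measured.

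Immediate early transcripts were present in all 6 brains at very different levels. Per kilobase of exon, the mean over the 6 libraries was highest for *Egr1* (58.9 CPM per kb) and *Arc* (50.7 CPM per kb). *Nr4a1* (20.7), *Junb* (16.9) and *Fos* (11.0) followed, then *Egr4* (8.49), *Dusp1* (8.03), *Npas4* (4.81), *Fosb* (4.60) and *Egr2* (2.54), all in CPM per kb. For 7 of the 9 neighbouring pairs in this order the first gene was above the next in all 6 libraries. *Egr4* was above *Dusp1* in 4 libraries and *Npas4* above *Fosb* in 3, so these neighbours were not ordered beyond the spread. In E861A brain *Npas4* stood at 4.23 ± 0.82 and *Fosb* at 3.80 ± 0.32 CPM per kb, and in WT brain at 5.40 ± 2.09 and 5.39 ± 0.49 CPM per kb (SD, n = 3). The order of the 10 genotype means was the same in E861A and in WT.

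**Figure D1:**
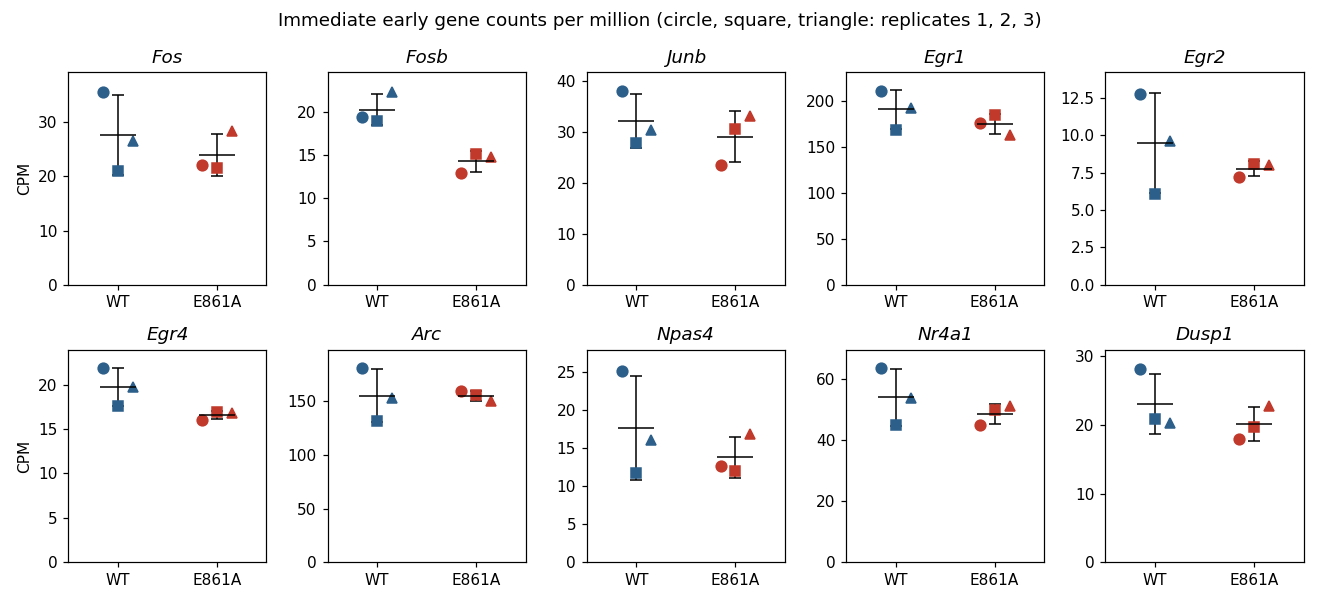
CPM of the 10 immediate early genes in each library, by genotype, on linear axes from 0. Circles, squares and triangles are replicates 1, 2 and 3, and black lines are the mean and SD of 3 libraries. The genotypes are apart only for *Fosb* and *Egr4*, and the WT circle is the highest point in every panel except *Fosb*.

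*Fosb* was lower in brain without ADAR1 editing. It encodes FosB and the stable splice form ΔFosB, which accumulates in neurons under repeated stimulation. *Fosb* (ENSMUSG00000003545; chromosome 7, 19888070 to 19895394, NCBIM37) was at 12.9, 15.1 and 14.8 CPM in E861A replicates 1 to 3 and at 19.4, 18.9 and 22.3 CPM in WT replicates 1 to 3. All 3 E861A libraries lay below all 3 WT libraries. The means were 14.3 ± 1.21 in E861A and 20.2 ± 1.82 CPM in WT (SD, n = 3). The fitted log2 fold change was -0.50 ± 0.09 (SE), so that the level fell by 29.1%. The adjusted p was 0.0137 by edgeR's quasi-likelihood test over all 13649 genes tested, and 0.00292 when the replicate number was added as a block.

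*Fosb* was thus 1 of 10 members called, and it was called as lower. Over all tested genes 0.506% were called, 0.0952% were called as lower, and with the replicate block 1.16% were called in either direction. The members were chosen with earlier results of these data known, so these shares describe the list and do not test it. The call depended on individual libraries. It was lost without E861A replicate 1, the library with pituitary transcripts (log2 fold change -0.42, adjusted p = 0.0542), without E861A replicate 3 (-0.53, adjusted p = 0.105) and without WT replicate 3 (-0.42, adjusted p = 0.106), by the same edgeR test. The direction was the same in all 6 omissions. An exact two-sided permutation test of the CPM gave p = 0.1, the smallest that 3 against 3 libraries allow.

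*Egr4* was the other gene whose genotypes did not overlap. *Egr4* (ENSMUSG00000071341; chromosome 6, 85461125 to 85463583) was at 16.0, 16.9 and 16.8 CPM in E861A and at 21.8, 17.6 and 19.8 CPM in WT. The log2 fold change was -0.25 ± 0.08 (SE), and it did not pass the test (adjusted p = 0.321, and 0.149 with the replicate block, edgeR quasi-likelihood; exact permutation p = 0.1). All 3 E861A libraries below all 3 WT libraries was found for 2 of the 10 members and for 6.81% of all tested genes. An unadjusted p under 0.05 by the edgeR quasi-likelihood test was also found for 2 of the 10, *Fosb* and *Egr4*, against 9.01% of all tested genes.

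The other two AP-1 genes were read beside *Fosb*. *Fos* (ENSMUSG00000021250; chromosome 12, 86814840 to 86818223) was at 22.1, 21.5 and 28.5 CPM in E861A and at 35.7, 21.0 and 26.6 CPM in WT. Its lowest and its highest value both came from WT brain, so the genotypes overlapped fully. The log2 fold change was -0.21 ± 0.15 (SE; adjusted p = 0.708, edgeR quasi-likelihood). It was 0.0047 without WT replicate 1 and -0.366 without WT replicate 2. *Junb* (ENSMUSG00000052837; chromosome 8, 87500811 to 87502617) ranged from 23.5 to 33.1 CPM in E861A and from 27.7 to 37.9 CPM in WT, with a log2 fold change of -0.14 ± 0.12 (SE; adjusted p = 0.771). It turned to 0.0024 without E861A replicate 1 and was -0.241 without E861A replicate 3. The log2 level of *Fosb* was also set against the median log2 level of the other 9 members in the same library. The levels were not centred by gene, and this median was the value of *Fos* in every library. The measure therefore compares *Fosb* with *Fos* alone and not with the group. It was -0.78, -0.51 and -0.94 in E861A and -0.88, -0.15 and -0.25 in WT. By this measure, chosen after the values were seen, the genotypes overlapped (exact two-sided permutation test, p = 0.3), with WT replicate 1 among the E861A values.

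Among the zinc finger factors, *Egr1* (ENSMUSG00000038418; chromosome 18, 35020861 to 35024638) is the most abundant and has a role in lasting synaptic plasticity. It was at 175, 185 and 163 CPM in E861A and at 211, 169 and 192 CPM in WT. These values overlapped, and the log2 fold change of -0.12 ± 0.07 (SE) did not pass the test (adjusted p = 0.613, edgeR quasi-likelihood). It was -0.0513 without WT replicate 1 and -0.194 without WT replicate 2. Its exons overlap by 8 bases those of *Gm17507* on the opposite strand, the only such overlap among the 10 genes. *Egr2* (ENSMUSG00000037868; chromosome 10, 66998223 to 67004936), which also governs myelination by Schwann cells, was at 7.20, 8.07 and 8.04 CPM in E861A and at 12.8, 6.07 and 9.61 CPM in WT. The E861A values sat close together between the WT extremes (log2 fold change -0.28 ± 0.19, SE; adjusted p = 0.694), and the log2 fold change was -0.0095 without WT replicate 1 and -0.512 without WT replicate 2 (adjusted p = 0.0648, edgeR quasi-likelihood).

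*Npas4* and *Arc* are the most selective for neuronal activity. *Npas4* (ENSMUSG00000045903; chromosome 19, 4984355 to 4989971) was at 12.6, 12.0 and 16.9 CPM in E861A and at 25.2, 11.7 and 16.1 CPM in WT. WT replicate 1 was apart from the other 5 libraries. The log2 fold change was -0.35 ± 0.20 (SE; adjusted p = 0.636, edgeR quasi-likelihood), -0.0197 without WT replicate 1 and -0.573 without WT replicate 2. *Arc* (ENSMUSG00000022602; chromosome 15, 74499513 to 74503000) was at 159, 155 and 150 CPM in E861A and at 181, 132 and 153 CPM in WT. Its means were 155.04 ± 4.57 and 155.14 ± 24.7 CPM (SD, n = 3), with a fitted log2 fold change of 0.0024 ± 0.08 (SE; adjusted p = 0.995), whose sign flipped with column totals in place of TMM scaling.

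*Nr4a1* (ENSMUSG00000023034; chromosome 15, 101097277 to 101105223) was at 44.7, 49.6 and 51.1 CPM in E861A and at 63.4, 44.7 and 53.7 CPM in WT. *Dusp1* (ENSMUSG00000024190; chromosome 17, 26642535 to 26645464), a feedback inhibitor of the same kinase cascade, ranged from 18.0 to 22.8 CPM in E861A and from 20.3 to 28.2 CPM in WT. Neither passed the test, with log2 fold changes of -0.15 ± 0.09 and -0.19 ± 0.11 (SE; adjusted p = 0.671 and 0.645, edgeR quasi-likelihood). Without WT replicate 1 they were -0.0259 and -0.0348, without WT replicate 2 -0.259 and -0.252, and without E861A replicate 1 -0.0847 and -0.108.

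**Figure D2:**
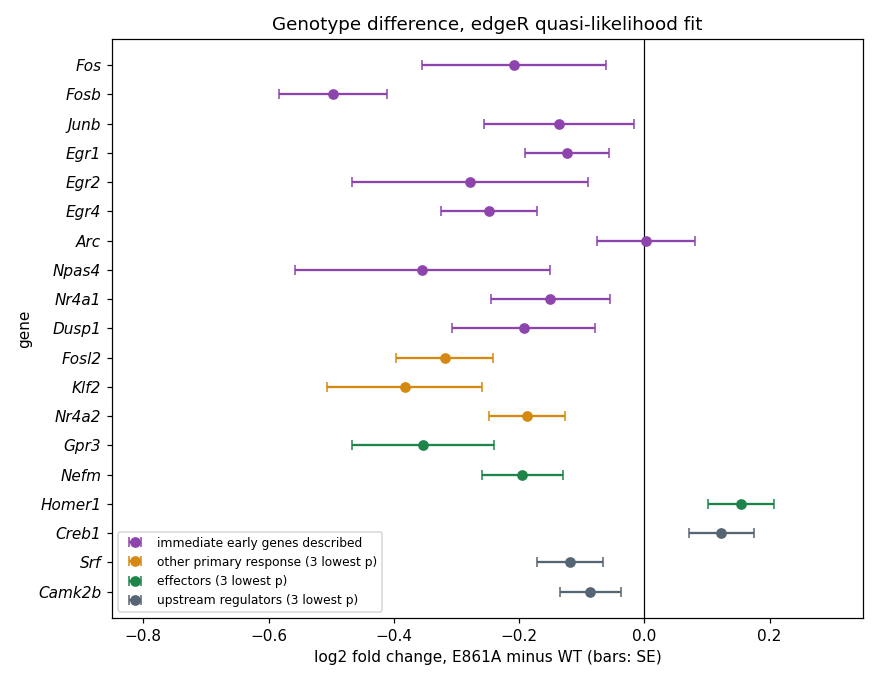
Log2 fold change of E861A against WT with its SE, from the edgeR quasi-likelihood fit of 6 libraries, for the 10 immediate early genes and the 3 genes with the lowest p of each related list. *Fosb* at -0.50 ± 0.09 is the only gene shown that passed the test.

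Taken as a group, 9 of the 10 members had a log2 fold change below 0, with a median of -0.20, while 50.5% of all tested genes were below 0 and their median was -0.0010. This lean of a list chosen with earlier results known is a description and was not tested. The size of this lean rested largely on 1 library. Without WT replicate 1 the median was -0.0228, with 8 of 10 below 0, and *Fosb* remained called (log2 fold change -0.53, adjusted p = 0.0154, edgeR quasi-likelihood). Without WT replicate 2 the median was -0.287, with 10 of 10 below 0, and without E861A replicate 1, the library with pituitary transcripts, it was -0.13, with 9 of 10 below 0.

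The members were set side by side across the 6 libraries. Each gene's log2 CPM was set relative to its mean over the 6 libraries, and the median over the 10 genes was 0.32 in WT replicate 1, 0.08 in WT replicate 3, -0.016 in E861A replicate 3, -0.08 in E861A replicate 2, -0.15 in WT replicate 2 and -0.21 in E861A replicate 1. WT replicate 1 was the highest of the 6 libraries for 9 of the 10 members, against 22.9% of all tested genes. It was also above every E861A library for 10 of the 10. At the other end, WT replicate 2 was below every E861A library for 4 members and E861A replicate 1 was the lowest library for 5. The WT libraries were therefore spread over most of the range. For the counts against the E861A libraries and of the lowest library, the share of all tested genes was not taken. Those counts describe the members only. Within E861A the members did not share 1 order: replicate 3 was the highest of the 3 for *Fos*, *Npas4*, *Junb*, *Nr4a1* and *Dusp1* and the lowest for *Egr1* and *Arc*. *Fosb* was the exception, with centred values of 0.20, 0.16 and 0.40 in WT and of -0.39, -0.16 and -0.20 in E861A.

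**Figure D3:**
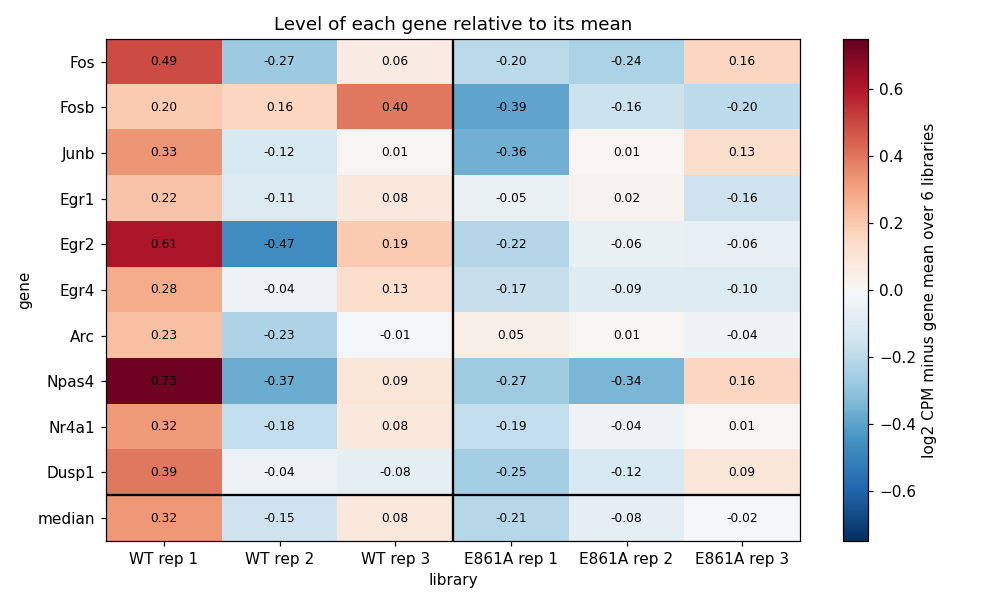
Log2 CPM of each gene minus its mean over the 6 libraries, with the median over the 10 genes in the bottom row. Red is above and blue below the mean. The WT replicate 1 column is above the mean in all 10 rows, and the WT replicate 2 column is below it in all rows except *Fosb*.

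Immediate early genes varied more between libraries of one genotype than most genes did. The pooled within-genotype SD of log2 CPM had a median of 0.21 over the 10 members and 0.084 over all tested genes, and all 10 members lay above the latter. *Npas4* (0.43), *Egr2* (0.39) and *Fos* (0.31) were above 99.6%, 99.4% and 98.4% of tested genes, while *Egr4* (0.12), *Fosb* (0.13) and *Egr1* (0.13) were above 69.2%, 74.0% and 76.4%. Counting alone would give 0.063 for *Npas4* and 0.059 for *Fosb*. The span from the lowest to the highest library was 2.15-fold for *Npas4*, 2.11-fold for *Egr2* and 1.30-fold for *Egr1*.

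The spread was wider in WT brain for 9 of the 10 members, *Junb* being the exception, whereas the WT spread was the wider for 40.5% of all tested genes. In *Arc* the SD of log2 CPM was 0.23 in WT and 0.043 in E861A, and in *Egr2* it was 0.54 and 0.093. With 3 libraries per genotype these SDs are imprecise, and no test was made. Without WT replicate 1 the median pooled SD of the members was 0.14.

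**Figure D4:**
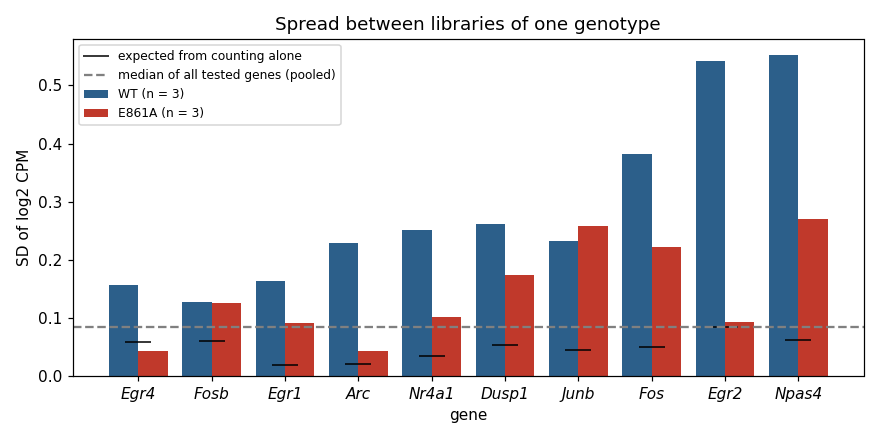
SD of log2 CPM between the 3 libraries of each genotype, in order of the pooled SD. Black marks are the SD expected from counting alone, and the dashed line at 0.084 is the median pooled SD of all tested genes. The WT bar is the taller for 9 genes.

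Libraries with the same replicate number did not share the level of most of these genes. Removing the mean of each replicate number lowered the median residual SD of all tested genes from 0.084 to 0.065 but raised that of the members from 0.21 to 0.27. It fell slightly for *Fos*, *Fosb* (from 0.126 to 0.109), *Arc* and *Npas4*, and rose for the other members. The block leaves fewer free values for each SD, so these medians compare only roughly. Both libraries numbered 1 stood at opposite ends, with WT high and E861A low. The block left the list of called members at *Fosb*.

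Most other primary response genes had fold changes below 0, but none passed the test. Of 31 genes in the list, which includes other AP-1, EGR, NR4A and KLF factors and MAP kinase phosphatases, 28 were tested. Of these 0 were called by the edgeR quasi-likelihood test, with 8 at an unadjusted p under 0.05, while DESeq2 and the likelihood ratio test each called 1, *Fosl2*. A log2 fold change below 0 was found in 23 of the 28, with a median of -0.17, and the median was -0.098 without WT replicate 1 and -0.138 without E861A replicate 1. The 3 with the lowest p were *Fosl2*, an AP-1 subunit (52.5 ± 2.21 CPM in E861A, 65.8 ± 8.89 in WT; SD, n = 3), *Klf2*, a factor prominent in endothelium (5.53 ± 0.67 and 7.21 ± 0.82 CPM), and *Nr4a2*, a nuclear receptor of dopamine neurons (35.5 ± 1.58 and 40.5 ± 3.36 CPM). Their log2 fold changes were -0.32 ± 0.08, -0.38 ± 0.12 and -0.19 ± 0.06 (SE), with adjusted p of 0.140, 0.354 and 0.359. In all 3, picked for their low p, the E861A libraries lay below the WT libraries. That held for 4 of the 28 tested genes of the list and for 6.81% of all tested genes. Without WT replicate 2 there were 3 calls, *Fosl2*, *Nr4a3* and *Sik1*, all lower.

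The later effector genes, which carry out changes at synapses, lay closer to 0. All 20 were tested, and 0 were called by the quasi-likelihood test or by DESeq2, with 3 at an unadjusted p under 0.05. A log2 fold change below 0 was found in 15, with a median of -0.04, and without E861A replicate 1 in 11, with a median of -0.0057. *Gpr3*, an orphan receptor that raises cAMP, was at 4.61 ± 0.50 CPM in E861A and 5.93 ± 0.26 CPM in WT (SD, n = 3; adjusted p = 0.345). *Nefm*, a neurofilament subunit, was at 275 ± 21.1 and 315 ± 20.8 CPM, and *Homer1*, a synaptic scaffold with a short activity-induced form, at 453 ± 13.0 and 407 ± 20.5 CPM. With the replicate block these last 2 were called, *Nefm* as lower (log2 fold change -0.20, adjusted p = 0.00915) and *Homer1* as higher (0.16, adjusted p = 0.0396, edgeR quasi-likelihood). Gene counts do not separate the *Homer1* forms. The E861A libraries lay below the WT libraries for 3 of the 20 genes, *Gpr3* among them, against 6.81% of all tested genes. For *Homer1* they lay above.

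The factors and kinases that act upstream showed small differences. Of 21 tested, 0 were called by the quasi-likelihood test and 0 by DESeq2, with 2 at an unadjusted p under 0.05, and the median log2 fold change was -0.0231, and -0.0318 without E861A replicate 1. *Creb1* was at 105 ± 1.27 CPM in E861A and 96.6 ± 6.34 CPM in WT, *Srf* at 27.2 ± 0.42 and 29.5 ± 0.59 CPM, and *Camk2b* at 468 ± 27.2 and 497 ± 21.1 CPM (SD, n = 3). Their adjusted p were 0.519, 0.536 and 0.626.

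Heat shock genes, which respond to handling, and clock genes, which follow the time of day, were read for the same libraries, and 0 of 7 and 0 of 8 tested genes were called (2 and 1 at an unadjusted p under 0.05, edgeR quasi-likelihood). *Hspa1b* had the widest difference, at 16.2, 9.01 and 5.14 CPM in E861A and 5.28, 4.10 and 7.23 CPM in WT (log2 fold change 0.87 ± 0.29, SE; adjusted p = 0.373). It was highest in E861A replicate 1, and without that library the log2 fold change was 0.398 (adjusted p = 0.687, edgeR quasi-likelihood). *Dnajb1*, too, was highest there, and went from a log2 fold change of 0.22 to 0.0935. *Dnajb1* was at 46.0 ± 7.61 and 39.6 ± 3.15 CPM, and *Hspb1* at 2.79 ± 0.56 and 3.33 ± 0.038 CPM (SD, n = 3). *Per3* was at 56.4 ± 3.92 and 49.5 ± 3.50 CPM, *Dbp* at 18.2 ± 1.03 and 16.3 ± 2.57 CPM and *Tef* at 205 ± 14.3 and 194 ± 2.01 CPM. The values of all 6 overlapped between genotypes.

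Markers of 1 brain region moved with the immediate early genes across the libraries. The 4 olfactory bulb markers summed to 51.9, 24.5 and 47.5 CPM in WT replicates 1 to 3 and to 31.9, 32.2 and 40.8 CPM in E861A replicates 1 to 3. From high to low, the libraries therefore stood in the same order as for the median of the immediate early genes, except that the lowest 2, WT replicate 2 and E861A replicate 1, changed places. *Cdhr1*, a cadherin of olfactory bulb mitral cells, was at 33.3, 14.2 and 31.3 CPM in WT and at 19.1, 20.7 and 25.6 CPM in E861A. All 3 tested olfactory bulb markers had log2 fold changes below 0 and 0 were called (0 at an unadjusted p under 0.05, edgeR quasi-likelihood), and *Tbx21* was too low to test. *Fosb* did not follow them in WT replicate 2. The olfactory list was picked out after its values were seen, among 14 marker lists, and its part in these results was not tested.

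The 4 endothelium markers summed to 90.4 to 110 CPM in E861A and to 114 to 138 CPM in WT, highest in WT replicate 1. All 4 had log2 fold changes below 0 and 0 were called (3 at an unadjusted p under 0.05, edgeR quasi-likelihood), with *Flt1* at -0.37 ± 0.08 (SE; adjusted p = 0.0817). The 4 choroid plexus markers summed to 206 to 314 CPM in E861A and 370 to 395 CPM in WT, and 3 of 4 were below 0. *Ttr* among them was called as lower with the replicate block (adjusted p = 0.0241, edgeR quasi-likelihood). It was at 183, 274 and 286 CPM in E861A replicates 1 to 3 and at 365, 341 and 359 CPM in WT. Both sums were lowest in E861A replicate 1, the library with pituitary transcripts. In E861A replicates 2 and 3 they were 110 and 102 CPM for endothelium and 302 and 314 CPM for choroid plexus. Fold changes of these lists are not given without E861A replicate 1. The summed levels of endothelium, choroid plexus and neuron markers were lower in all E861A than in all WT libraries. Among single genes this held for 1 of 4, 2 of 4 and 1 of 6, against 6.81% of all tested genes. The neuron gene was *Snap25*, the most abundant of the 6, with a log2 fold change of only -0.038 ± 0.048 (SE). Astrocyte markers were the other way, at 824 to 875 CPM in E861A and 800.1 to 821 CPM in WT. The part of these lists in the difference of *Fosb* was not tested. The sums of 3 red blood cell markers (26.5 to 37.3 CPM in E861A, 30.3 to 51.5 CPM in WT) and of 5 microglia markers (105 to 114 and 114 to 117 CPM) overlapped between genotypes. None of the listed markers was at 0 in all libraries.

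**Figure D5:**
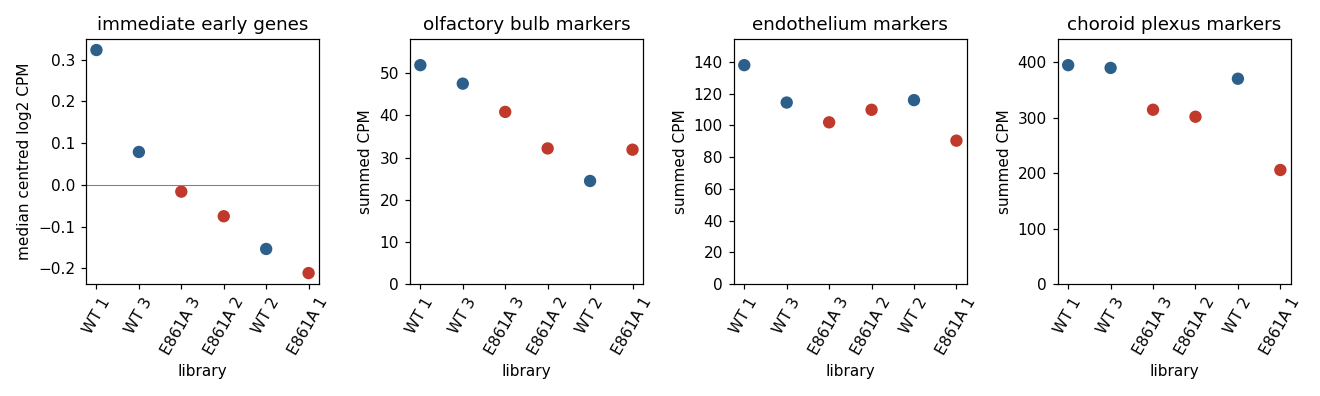
Median centred log2 CPM of the 10 immediate early genes and the summed CPM of olfactory bulb, endothelium and choroid plexus markers, with the libraries in the order of the first panel (blue WT, red E861A). WT replicate 1 is highest in all 4 panels, and WT replicate 2 is low only for the immediate early genes and the olfactory bulb markers.

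Other marker lists had median log2 fold changes of 0.0242 for astrocytes, -0.0214 for oligodendrocytes, -0.064 for neurons, -0.036 for cortex, 0.0056 for hippocampus, -0.0068 for striatum, -0.0176 for cerebellum and -0.16 for the 2 tested hypothalamus genes. The median was -0.063 for the 5 microglia markers and -0.48 for the 3 red blood cell markers, whose sum was highest in WT replicate 2. One gene of these lists, *Cbln3* of the cerebellum list, was called, and only with the replicate block (adjusted p = 0.0020).

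Outside the list, genes whose centred profile over the 6 libraries was among the nearest to the median of the immediate early genes were *Als2cl*, *Trim36*, *Insc* and *Ano1*. Their root-mean-square differences from it were 0.039, 0.049, 0.055 and 0.058 on the log2 scale, against a median of 0.19 over all other tested genes. *Als2cl* had centred values of 0.32, -0.16 and 0.092 in WT and of -0.14, -0.042 and -0.071 in E861A. None of these 4 was called by the edgeR test (adjusted p from 0.579 to 0.786). Of the members themselves, *Nr4a1* (0.0252) was nearest to the median profile, and *Npas4* (0.23) and *Fosb* (0.22) were farthest from it. That profile was made from the members, so their distances do not compare with those of other genes.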

How the data were processed

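Read counts per gene were analysed for 6 libraries of whole mouse brain, 3 per genotype. Per the labels, reads were trimmed with Trimmomatic 0.36 and aligned with STAR 2.5.2a to mm9 (NCBIM37). The authors deposited the counts that STAR gave for each gene, with 1 column per library. Which strand column they took is not given in the sources used here, so antisense overlaps are uncertain. The deposited CPM tables and the authors' edgeR comparison (fold change, average level and false discovery rate) were not used. GENCODE vM1 held all 37310 identifiers and gave the gene coordinates and exon lengths; RefSeq windows are on GRCm38.p6 and were not mixed with them.

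Tested were the 13649 genes that reached 2 CPM in all 3 libraries of E861A, of WT or of both, in R 4.3.3 with edgeR 4.0.16: TMM scaling (factors 0.986 to 1.02), quasi-likelihood test, genotype only, Benjamini-Hochberg adjustment over all genes tested, called at an adjusted p under 0.05. The SE is the absolute log2 fold change divided by the square root of F. Printed CPM use column totals; log2 CPM used a prior of 0.5 counts. The model was tested on simulated data. Alternatives used DESeq2 1.42.0, limma 3.58.1, other scalings and filters, a replicate block and the omission of each library, which for heat shock genes was added after seeing the data.

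The members and lists were chosen with earlier results of these data known. Named outside the members are the called genes of 5 lists, or the 3 with the lowest p, and the 5 genes nearest in profile, 1 of which is not reported here; genes called only with the replicate block and single marker genes were named after their values were seen. *Hbb-b1* and *Drd1a* had no match by symbol. The titles give both genotypes the same replicate numbers. After subtraction of genotype means, libraries numbered alike had correlations across genes of r = 0.22, 0.325 and 0.11, each above the limit of 0.1. They were taken as pairs only in the replicate block, an alternative fit, and what they shared is not stated. The main fit, the within-genotype SDs and the permutation tests did not pair them. Exact permutation tests were two-sided.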

Additional observations from a re-analysis of the deposited data

How the results depend on the processing

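The call of *Fosb* held under the replicate block, DESeq2 size factors, column totals, filterByExpr, no filter, a stricter expression filter (all 6 libraries), DESeq2, limma-voom and the likelihood ratio test, with adjusted p from 2.71e-08 to 0.0219. Over the omissions of single libraries its log2 fold change ran from -0.556 to -0.419 and its adjusted p from 0.00624 to 0.106, and the number of called members from 0 to 1. Without a filter 2 members were called, because *Npas4* passed too (log2 fold change -0.363, adjusted p = 0.00104). Without a filter edgeR put infinite weight on the prior, so that a gene's own spread had no weight. That fit also called 4 other primary response genes and 1 effector. DESeq2 called 1 and the likelihood ratio test 1 of the other primary response genes, and the omissions 0 to 3. The replicate block gave 2 effector calls and changed no other call among the members and the 3 related lists. The causes of these changes in calls were not tested.

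*Arc*, near 0, changed sign with column totals (-0.00057), filterByExpr (-0.0041), no filter (-0.0075) and over the omissions (-0.0938 to 0.119). *Fos* ran from -0.366 to 0.0047 and *Junb* from -0.241 to 0.0024 over the omissions. The median of the members ran from -0.287 to -0.0228. With 3 libraries per genotype, a difference the size of that in *Fosb* could be missed in *Npas4*, *Egr2* or *Fos*, whose SE was 0.20, 0.19 and 0.15.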
